A study of Homo sapiens with 8 samples.

Results

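The human mitochondrial genome carries 37 genes, and all 37 are described here in HEK293T cells, a line from human embryonic kidney. They were taken by symbol, as every gene whose symbol begins with MT-, and comprise 13 mRNAs, 22 tRNAs and 2 rRNAs among 60652 gene rows counted per library. Nuclear copies of mitochondrial genes were kept apart. All cells carried a TRE3G-GFP reporter, grew in medium with 10% serum, received plasmids for an activator and a guide RNA, and were sorted by their mCherry and BFP signal after 2 days. The 8 libraries fall into 4 groups of 2. Cells with dCasMINI-VPR, an engineered compact Cas protein fused to transcription activation domains, received a guide named Tet (sgTet) or a non-targeting guide (sgNT). Cells with dCas12a-VPR, a larger Cas protein with the same kind of fusion, received a Tet guide (crTet) or a non-targeting guide (crNT). The constructs were supplied by transient transfection in every group, so no group holds untransfected cells, and the labels do not say whether the replicates were separate transfections. All p-values therefore measure the spread between these libraries, which may be technical.

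Mitochondrial DNA is a small circle without introns. Its strands, called heavy and light, are each copied by the mitochondrial RNA polymerase POLRMT into long RNAs that span many genes. tRNAs lie between most mRNAs and rRNAs and are cut out of these RNAs, which frees the RNAs on either side, and most of the mRNAs and both rRNAs then receive an adenine tail. The mRNAs encode subunits of respiratory complexes I, III, IV and V, and the rRNAs and tRNAs serve the mitochondrial ribosome that translates them. In the annotation, 28 of the genes are copied from the heavy strand and have the plus orientation, and 9 (MT-ND6 and 8 tRNAs) have the minus orientation. Members were 59 to 1812 bases long, the tRNAs 59 to 75 bases. Of the 37 genes, 25 touch or overlap the next gene without a gap.

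That dense layout decides which reads a gene count can hold, since the counter used leaves out reads that touch more than 1 gene. The stretches below show the junctions on which the counts of MT-TS1, MT-ND6, the tRNAs, MT-ATP8 and MT-ND4L turn. All are given on the plus strand of chromosome M, build GRCh38, as the GENCODE release 29 transcripts spell them. In the first, chrM:7386-7514, the last 60 bases of MT-CO1 run straight into MT-TS1, the serine tRNA gene of the opposite strand, whose complement is in capitals. The second, chrM:14089-14208, is the meeting of the ends of MT-ND5 and, in capitals, the complement of MT-ND6. The third, chrM:1572-1700, holds the valine tRNA MT-TV in capitals between the end of MT-RNR1 and the start of MT-RNR2. The fourth, chrM:8366-8572, is the whole of MT-ATP8, with the 46 bases it shares with MT-ATP6 in capitals. The fifth, chrM:10726-10800, is the end of MT-ND4L and the start of MT-ND4, with the 7 bases they share in capitals.
MT-CO1 end and MT-TS1: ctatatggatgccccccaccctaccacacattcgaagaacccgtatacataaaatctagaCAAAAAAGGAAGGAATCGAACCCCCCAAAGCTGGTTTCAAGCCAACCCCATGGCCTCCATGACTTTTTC
MT-ND5 end and MT-ND6 end: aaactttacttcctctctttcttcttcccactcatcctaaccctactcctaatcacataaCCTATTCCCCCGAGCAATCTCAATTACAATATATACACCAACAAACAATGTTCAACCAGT
MT-RNR1 end, MT-TV, MT-RNR2 start: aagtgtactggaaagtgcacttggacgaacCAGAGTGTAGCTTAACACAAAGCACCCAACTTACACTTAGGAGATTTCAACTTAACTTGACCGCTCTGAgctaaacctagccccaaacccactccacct
MT-ATP8: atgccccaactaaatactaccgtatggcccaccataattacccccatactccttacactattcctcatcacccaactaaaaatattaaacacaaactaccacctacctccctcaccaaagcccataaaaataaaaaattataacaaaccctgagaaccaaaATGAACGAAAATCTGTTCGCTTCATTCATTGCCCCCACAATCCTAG
MT-ND4L end and MT-ND4 start: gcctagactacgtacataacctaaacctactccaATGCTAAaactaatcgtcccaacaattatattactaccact
Among the mRNAs, 6 have a length that is no multiple of 3, of which 5 end in a single T and 1 (MT-ND1) in TA beyond the last codon. In such genes the adenine tail is known to complete the stop codon.

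RNA was selected on oligo(dT) beads, which as a rule carry RNAs without an adenine tail through only in traces. Between 17474404 and 21081942 reads per library were counted in genes, and 3 reads correspond to 0.142 to 0.172 counts per 1000000 gene reads (CPM), a floor that covers counting error only since reads carry no molecular identifiers. Of all reads, 8.32% to 9.62% were unmapped in 6 libraries, and 14.4% and 12.7% in the crNT libraries. The reporter transcript EGFP fitted the guide labels, with 919 and 1092 CPM in sgTet, 3.22 and 4.42 CPM in sgNT, 803 and 707 CPM in crTet, and 2.76 and 2.66 CPM in crNT. Of 8 genes that mark HEK293 cells, 7 averaged over 1 CPM. Of 16 markers of blood, fibroblast, endothelial and liver cells, PTPRC and CD68 had no read. The summed level of these 16 was 45.3 and 49.6 CPM in sgTet, 38.4 and 46.0 in sgNT, 51.5 and 53.6 in crTet, and 45.9 and 44.8 in crNT. The sgTet libraries stood apart from each other most, with a chi-square per degree of freedom over all genes of 12.5, against 3.8 in sgNT, 6.47 in crTet and 3.12 in crNT. The dCasMINI-VPR effects on mitochondrial genes are therefore given with and without each of the sgTet libraries. Between the guides, 0 of the 5 markers of other cell types that were tested changed with either construct (1 at an unadjusted p under 0.05 in each, 0 by DESeq2), and of the 8 HEK293 markers 1 was called higher with dCasMINI-VPR and 2 with dCas12a-VPR (2 and 5 at an unadjusted p under 0.05), where 0.47% and 3.56% of all genes were called higher. The median log2 fold change of these 8 was 0.08 with dCasMINI-VPR and 0.25 with dCas12a-VPR. Their part in the mitochondrial results was not tested.

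Mitochondrial genes held a larger share of the gene reads in every Tet library than in any non-targeting library. They made up 4.57% and 3.49% of gene reads in sgTet, and 3.09% and 3.33% in sgNT. With dCas12a-VPR they made up 3.90% and 4.03% in crTet, and 2.97% and 3.04% in crNT. The lowest Tet value, sgTet replicate 2, lay just above the highest non-targeting value, sgNT replicate 2. The share averaged 3.997% ± 0.445 over the Tet libraries and 3.11% ± 0.159 over the non-targeting libraries (SD, n = 4 each). The difference of 0.891 percentage points had an exact permutation p of 0.0556 (two-sided, guide labels permuted within each construct), the smallest that the 36 arrangements allow. Without sgTet replicate 1 it was 0.621 points, and without sgTet replicate 2 it was 1.16 points. Taken over all reads that entered counting, unmapped ones included, the shares were 3.41% and 2.59% in sgTet, 2.26% and 2.41% in sgNT, 2.86% and 2.96% in crTet, and 2.08% and 2.16% in crNT. In bulk RNA, fewer cells that hold much of an RNA and less of it per cell cannot be told apart.

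**Figure D1:**
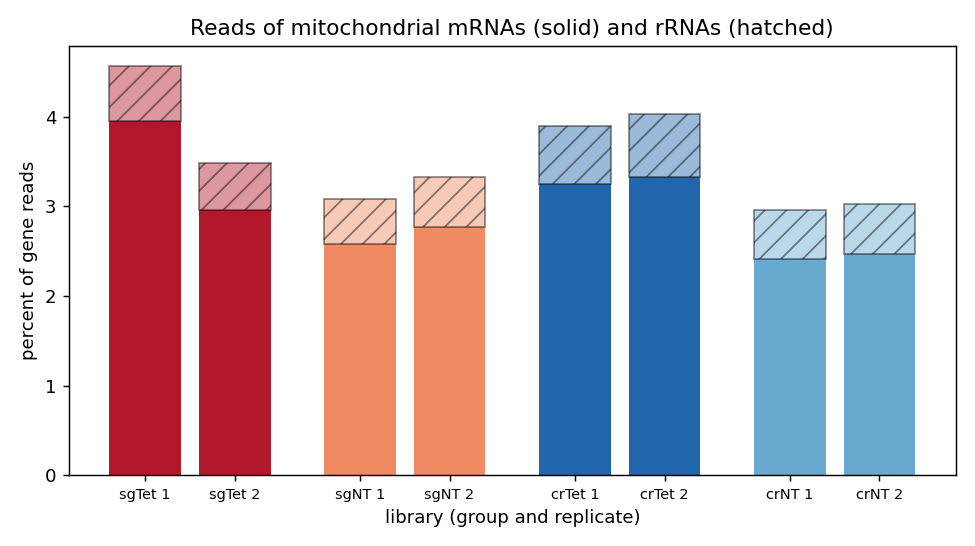
Percent of gene reads (vertical axis) held by the mitochondrial mRNAs (solid) and rRNAs (hatched) in each of the 8 libraries. The totals of the 4 Tet libraries lie between 3.49% and 4.57%, all above those of the non-targeting libraries, whose highest is 3.33%.

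The higher share came from most of the mRNAs and from the rRNA MT-RNR2. With dCas12a-VPR the other rRNA, MT-RNR1, was also higher in both Tet libraries, though not called. Of the 37 genes, 16 passed the filter on low counts and were tested with edgeR's quasi-likelihood test: the 13 mRNAs, both rRNAs and the proline tRNA MT-TP. The other 21, all tRNAs, had too few reads or none. With the dCasMINI-VPR guide, 2 of 16 were called higher and 0 lower at a Benjamini-Hochberg adjusted p under 0.05 (MT-ND3 and MT-CO3), where 0.47% of all genes were called higher and 0.325% lower. With the dCas12a-VPR guide, 9 were called higher and 0 lower (MT-ND1, MT-ND2, MT-ND3, MT-ND5, MT-ND6, MT-CYB, MT-CO3, MT-ATP6 and MT-RNR2), where 3.56% of all genes were called higher and 2.75% lower. For the mean of both guide effects 10 were called higher and 0 lower (the same 9 and MT-CO1), where 2.39% of all genes were called higher and 1.72% lower.

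The fitted log2 fold change over non-targeting was positive for 15 of the 16 genes with dCasMINI-VPR, MT-RNR1 being the exception, and for all 16 with dCas12a-VPR. Its median was 0.37 with dCasMINI-VPR and 0.46 with dCas12a-VPR, beside medians of 0.00 and 0.01 over all 16606 genes tested. Both Tet libraries lay above both non-targeting libraries in 11 of the 16 genes with dCasMINI-VPR (20.6% of all genes do so) and in 14 with dCas12a-VPR (26.3% of all genes). All 4 Tet libraries lay above all 4 non-targeting libraries in 8 genes (MT-ND2, MT-ND3, MT-ND4, MT-CYB, MT-CO1, MT-CO2, MT-CO3 and MT-ATP6), where 2.57% of all genes do so.

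Single libraries move these counts. A fit without 1 library leaves its group with 1, so the spread is taken from the other groups. Its p-values and calls, here and below, hold nothing of the gap between the libraries of that group. Without sgTet replicate 2, 14 genes were called with dCasMINI-VPR, where calls over all genes in either direction went up to 8.34%, against 0.795% with all libraries. Without sgTet replicate 1 there were 2 (MT-ND3 and MT-ATP6), where 0.5% of all genes were called. The count was 1 without sgNT replicate 1 (0.288% of all genes), and 4 without either crNT library (0.56% and 0.571%). With dCas12a-VPR, where 6.32% of all genes were called with all libraries, the count was 1 without crNT replicate 1 (0.763%), 4 without crNT replicate 2 (1.93%) or crTet replicate 1 (2.93%), and 2 without crTet replicate 2 (2.54%). For the mean it was 6 without crTet replicate 1 (2.91%) and 4 without crTet replicate 2 (2.73%). With no low-count filter 10 genes were called with dCasMINI-VPR, where 0.873% of all genes were called in either direction.

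**Figure D2:**
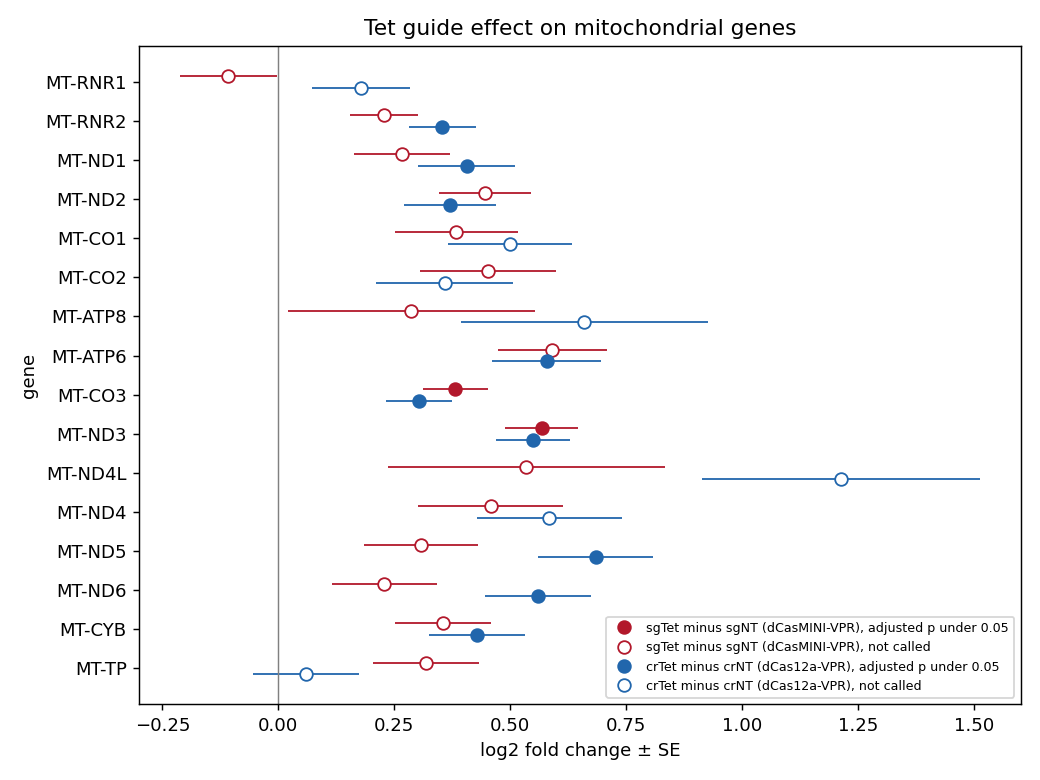
Log2 fold change ± SE (horizontal axis) of the 16 mitochondrial genes tested, sgTet minus sgNT in red and crTet minus crNT in blue, with filled points for adjusted p under 0.05. Apart from MT-RNR1 in the red series at -0.11, all points lie to the right of 0.

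Complex I, the NADH dehydrogenase that feeds electrons into the respiratory chain, has 7 subunits encoded here. MT-ND3 was the mRNA with the steadiest rise over the sgTet libraries, while its crTet libraries lay further apart. It was at 872 and 914 CPM in sgTet, against 636 and 569 CPM in sgNT. With dCas12a-VPR it was at 735 and 901 CPM in crTet, against 546 and 572 CPM in crNT. Every Tet library was above every non-targeting library, and both sgTet libraries were high, which no other mRNA showed as evenly. Its log2 fold change was 0.57 ± 0.08 with dCasMINI-VPR (adjusted p = 7.93e-05) and 0.55 ± 0.08 with dCas12a-VPR (adjusted p = 9.05e-05), and both calls held under all 16 alternatives. The dCasMINI-VPR value was 0.60 without sgTet replicate 1 and 0.53 without replicate 2.

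MT-ND1, the first mRNA after the rRNAs, was at 2278 and 1717 CPM in sgTet, against 1565 and 1756 CPM in sgNT, and the groups overlapped. It was at 1800.1 and 1860.0 CPM in crTet, against 1364 and 1398 CPM in crNT, and was called with dCas12a-VPR (0.41 ± 0.10, adjusted p = 0.0355). With dCasMINI-VPR it had 0.27 ± 0.10 (adjusted p = 0.312), with 0.050 when sgTet replicate 1 was left out and 0.46 when sgTet replicate 2 was. MT-ND2 was at 2754 and 2057 CPM in sgTet, against 1729 and 1804 CPM in sgNT. In crTet it was at 1982 and 2064 CPM, against 1543 and 1588 CPM in crNT. MT-ND2 did not overlap between guides with either construct and was called with dCas12a-VPR (0.37 ± 0.10, adjusted p = 0.0406), while its value with dCasMINI-VPR was 0.45 ± 0.10 (adjusted p = 0.0589). That value was 0.22 without sgTet replicate 1 and 0.64 without replicate 2, and 8 of 16 alternatives called it, the DESeq2 test among them (adjusted p = 0.00419). Calls of MT-ND1 and MT-ND2 with dCas12a-VPR were lost without any 1 of the crTet or crNT libraries, with the highest adjusted p at 0.315 and 0.32, and with either strand column or with library size alone.

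MT-ND5, the longest mRNA, was at 2052 and 1493 CPM in sgTet, against 1363 and 1501 CPM in sgNT, with sgTet replicate 2 inside the sgNT range. It was at 1721 and 1741 CPM in crTet, against 1049.7 and 1105 CPM in crNT. MT-ND5 was called with dCas12a-VPR (0.68 ± 0.12, adjusted p = 0.0118) and had 0.31 ± 0.12 with dCasMINI-VPR (adjusted p = 0.353). The dCasMINI-VPR value of MT-ND5 was 0.062 without sgTet replicate 1 and 0.52 without replicate 2. MT-ND6, the only mRNA copied from the light strand, lies end to end with it. It was at 384 and 276 CPM in sgTet, against 276 and 288 CPM in sgNT, and at 342 and 347 CPM in crTet, against 237 and 229 CPM in crNT. Its value was 0.56 ± 0.11 with dCas12a-VPR (adjusted p = 0.0118) and 0.23 ± 0.11 with dCasMINI-VPR (adjusted p = 0.449). With dCasMINI-VPR, leaving out sgTet replicate 1 turned it to -0.028 and leaving out replicate 2 gave 0.45. The dCas12a-VPR calls of both were lost without either crTet library or crNT replicate 1, and that of MT-ND6 also without crNT replicate 2 and with forward-strand counts (highest adjusted p 0.2 for MT-ND5 and 0.132 for MT-ND6).

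MT-ND4 and MT-ND4L share an RNA and 7 bases. MT-ND4 was at 4427 and 3095 CPM in sgTet, against 2624 and 2854 CPM in sgNT, and at 3542 and 3521 CPM in crTet, against 2313 and 2397 CPM in crNT. The guides did not overlap with either construct, and neither effect was called by edgeR (0.46 ± 0.16 for dCasMINI-VPR at an adjusted p of 0.321, 0.58 ± 0.16 for dCas12a-VPR at an adjusted p of 0.0936). The dCas12a-VPR effect was called by the DESeq2 test (adjusted p = 0.0235) and with no low-count filter (0.00202), and was 0.58 without either sgTet library. The dCasMINI-VPR effect was 0.18 without sgTet replicate 1 and 0.69 without replicate 2, and with all libraries was called with no filter (adjusted p = 0.0467). MT-ND4L was at 265 and 149 CPM in sgTet, against 136 and 149.7 CPM in sgNT. In crTet it was at 243 and 289 CPM, against 117 and 112 CPM in crNT. The crTet libraries held over 2 times as much as the crNT libraries, the largest ratio among the mRNAs (log2 fold change 1.21 ± 0.30). It was not called (adjusted p = 0.119), in a fit whose spread took in the wide gap between the sgTet libraries. Of the alternatives that kept all libraries, only the DESeq2 test called it with dCas12a-VPR (adjusted p = 0.00198). Without either sgTet library the dCas12a-VPR value was 1.21. With dCasMINI-VPR MT-ND4L had 0.54 ± 0.30 (adjusted p = 0.563), which was 0.067 without sgTet replicate 1 and 0.89 without replicate 2.

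Complex III passes electrons on to cytochrome c, and MT-CYB encodes its one mitochondrial subunit, cytochrome b. MT-CYB was at 2535 and 1939 CPM in sgTet, against 1661 and 1836 CPM in sgNT, and at 1845 and 2039 CPM in crTet, against 1414 and 1473 CPM in crNT. All Tet libraries were above all non-targeting ones. It was called with dCas12a-VPR (0.43 ± 0.10, adjusted p = 0.0264) and had 0.36 ± 0.10 with dCasMINI-VPR (adjusted p = 0.16). The dCasMINI-VPR value was 0.15 without sgTet replicate 1 and 0.54 without replicate 2. The dCas12a-VPR call was lost without any 1 of the crTet or crNT libraries (highest adjusted p 0.261), with library size alone and with forward-strand counts.

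Complex IV, cytochrome c oxidase, takes its catalytic core from MT-CO1, MT-CO2 and MT-CO3. MT-CO1, which took the most reads of any member, was at 10513 and 7539.8 CPM in sgTet, against 6659 and 7175 CPM in sgNT. It was at 9309 and 9430.2 CPM in crTet, against 6527 and 6724 CPM in crNT. All Tet libraries were above all non-targeting ones, and the gene was called for the mean of the guide effects (0.44 ± 0.09, adjusted p = 0.0448) but with neither construct by itself (0.38 ± 0.13 for dCasMINI-VPR at an adjusted p of 0.299, 0.50 ± 0.13 for dCas12a-VPR at an adjusted p of 0.0742). Its dCas12a-VPR effect was called by the DESeq2 test (adjusted p = 0.041), with no low-count filter (0.00273) and with reverse-strand counts (0.0241). It was 0.50 without any 1 of the sgTet or sgNT libraries. Its dCasMINI-VPR effect was 0.13 without sgTet replicate 1 and 0.60 without replicate 2. The call for the mean was lost in 7 of 16 alternatives, among them without either crTet library, either crNT library or sgNT replicate 1 (highest adjusted p 0.29).

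MT-CO2 was at 6231 and 4415 CPM in sgTet, against 3869.9 and 3912 CPM in sgNT, and at 4571 and 4997 CPM in crTet, against 3681 and 3783 CPM in crNT. It did not overlap between guides but was not called (0.45 ± 0.15 for dCasMINI-VPR at an adjusted p of 0.285, 0.36 ± 0.15 for dCas12a-VPR at an adjusted p of 0.242). With no low-count filter both effects were called (adjusted p = 0.025 for dCasMINI-VPR, 0.0419 for dCas12a-VPR), and the mean of the effects was called by the DESeq2 test (adjusted p = 0.0364). The dCasMINI-VPR effect was 0.18 without sgTet replicate 1 and 0.68 without replicate 2, and the dCas12a-VPR effect was 0.36 without either. MT-CO3 was at 5287 and 4489 CPM in sgTet, against 3615 and 3889.6 CPM in sgNT. It was at 4338 and 4577 CPM in crTet, against 3561 and 3661 CPM in crNT. MT-CO3 was called with both constructs, at 0.38 ± 0.07 with dCasMINI-VPR (adjusted p = 0.0022) and 0.30 ± 0.07 with dCas12a-VPR (adjusted p = 0.00725). The dCasMINI-VPR value was 0.26 without sgTet replicate 1 and 0.495 without replicate 2. Its call was lost without sgTet replicate 1 (adjusted p = 0.0542) or sgNT replicate 1 (0.213), and the dCas12a-VPR call without crTet replicate 2 (0.0635), crNT replicate 1 (0.18) or crNT replicate 2 (0.0596).

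Complex V is the ATP synthase, and MT-ATP6 and MT-ATP8 encode parts of its membrane sector from overlapping reading frames of a shared RNA. MT-ATP6 was at 2811 and 2090.3 CPM in sgTet, against 1573 and 1681 CPM in sgNT. It was at 1876 and 2080.4 CPM in crTet, against 1288 and 1362 CPM in crNT. All Tet libraries were above all non-targeting ones. The log2 fold change was 0.59 ± 0.12 with dCasMINI-VPR (adjusted p = 0.0588) and 0.58 ± 0.12 with dCas12a-VPR (adjusted p = 0.0181). With dCasMINI-VPR it was 0.36 without sgTet replicate 1 and 0.79 without replicate 2, and 9 of 16 alternatives called it, both of these fits among them. The dCas12a-VPR call was lost without either crTet library or crNT replicate 1 (highest adjusted p 0.204). The mean of the effects, 0.58 ± 0.08, was called in the main fit (adjusted p = 0.00352) and in all 16 alternatives. MT-ATP8 was at 7.29 and 5.70 CPM in sgTet, 5.37 and 5.27 CPM in sgNT, 5.12 and 9.95 CPM in crTet, and 3.84 and 5.66 CPM in crNT. It held 950 reads over the 8 libraries, and the guides overlapped with dCas12a-VPR, where the crTet libraries lay far apart. Neither effect was called (0.29 ± 0.27 for dCasMINI-VPR at an adjusted p of 0.705, 0.66 ± 0.27 for dCas12a-VPR at an adjusted p of 0.147). The dCasMINI-VPR effect was 0.10 without sgTet replicate 1 and 0.45 without replicate 2. Without crTet replicate 1 the dCas12a-VPR effect was 1.06.

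**Figure D3:**
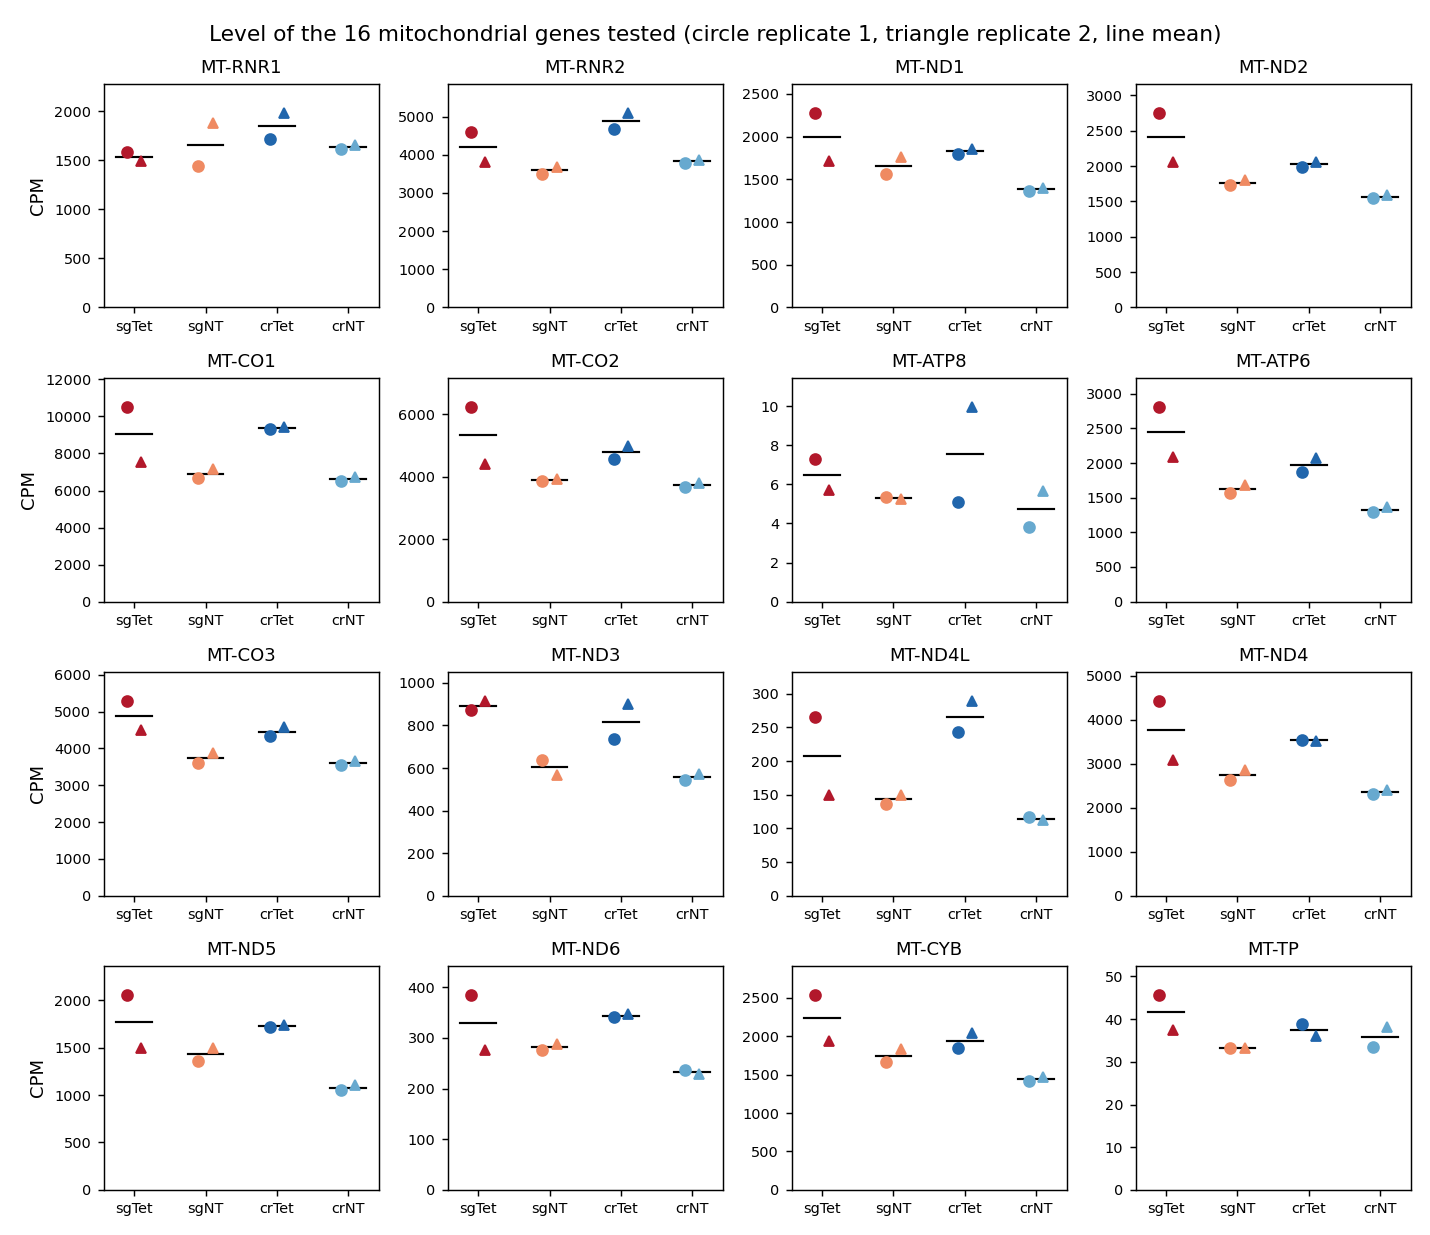
CPM (vertical axis of each panel, from 0) of the 16 mitochondrial genes tested in sgTet, sgNT, crTet and crNT, with circles for replicate 1, triangles for replicate 2 and a line at the mean of the 2 libraries. In most mRNA panels sgTet replicate 1 stands above sgTet replicate 2, as in MT-CO1 with 10513 and 7539.8 CPM, while in MT-ND3 the sgTet libraries lie close at 872 and 914 CPM.

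The rRNAs, copied early in the heavy-strand transcript and ending in short adenine tails, differed from each other. MT-RNR2, the large-subunit rRNA, was at 4586 and 3821 CPM in sgTet, against 3502 and 3677 CPM in sgNT. In crTet it was at 4682 and 5100.2 CPM, against 3798 and 3858 CPM in crNT. MT-RNR2 was called with dCas12a-VPR (0.35 ± 0.07, adjusted p = 0.00257), a call lost only without crNT replicate 1 among the 16 alternatives. It had 0.23 ± 0.07 with dCasMINI-VPR (adjusted p = 0.155), which was 0.092 without sgTet replicate 1 and 0.35 without replicate 2. MT-RNR1, the small-subunit rRNA, was at 1588 and 1492 CPM in sgTet, against 1439 and 1879 CPM in sgNT, and at 1717 and 1986 CPM in crTet, against 1613 and 1659 CPM in crNT. Its sgTet libraries lay between the sgNT libraries, while both crTet libraries lay above both crNT libraries. Its log2 fold changes were -0.11 ± 0.11 with dCasMINI-VPR (adjusted p = 0.732) and 0.18 ± 0.11 with dCas12a-VPR (adjusted p = 0.396). The dCasMINI-VPR value was -0.15 without sgTet replicate 1 and -0.063 without replicate 2.

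The balance between the rRNAs, and between rRNAs and mRNAs, differed by guide. MT-RNR1 had 0.346 and 0.390 reads per MT-RNR2 read in sgTet, against 0.411 and 0.511 in sgNT. With dCas12a-VPR it had 0.367 and 0.389 in crTet, against 0.425 and 0.430 in crNT. All 4 Tet libraries were below all 4 non-targeting libraries. Both rRNAs together had 0.153 and 0.176 reads per mRNA read in sgTet, against 0.192 and 0.203 in sgNT, and 0.198 and 0.209 in crTet, against 0.229 and 0.226 in crNT. This ratio was lower with the Tet guide within each construct, and the crTet libraries overlapped with the sgNT libraries in their range. These ratios are descriptions and were not tested.

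Other ratios among neighbours moved differently with the constructs. MT-ND4L had 0.0598 and 0.0483 reads per MT-ND4 read in sgTet, against 0.0519 and 0.0524 in sgNT. It had 0.0685 and 0.0821 in crTet, against 0.0506 and 0.0467 in crNT, so that the ratio was higher with the Tet guide only in the dCas12a-VPR libraries, a difference between constructs that was not tested. In the main column MT-ND6 had 0.0096 and 0.00924 reads per read of the other 12 mRNAs in sgTet, against 0.0108 and 0.0106 in sgNT, and 0.0107 and 0.0104 in crTet, against 0.0101 and 0.00949 in crNT. That column leaves out many MT-ND6 reads that the strand columns, which count each orientation apart, hold. Over both strand columns the ratio was 0.0186 and 0.0177 in sgTet, against 0.0197 and 0.01999 in sgNT, and 0.0193 and 0.01799 in crTet, against 0.0184 and 0.0177 in crNT. It was lower with the Tet guide under dCasMINI-VPR in both ways of counting, while under dCas12a-VPR the guides overlapped over the strand columns. These ratios were not tested either.

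tRNA genes were nearly absent from the counts. In the column that ignores strand, 20 of the 22 tRNAs had no read in any library, which limits each to 0.142 to 0.172 CPM per library. MT-TF, the phenylalanine tRNA at the head of the heavy-strand transcript, had 21 reads in all. MT-TP, the proline tRNA of the light strand, had 5852. MT-TP was at 45.6 and 37.5 CPM in sgTet, against 33.3 and 33.3 CPM in sgNT, and at 38.8 and 35.95 CPM in crTet, against 33.5 and 38.2 CPM in crNT. In this column the guides overlapped with dCas12a-VPR, and neither effect was called (0.32 ± 0.12 for dCasMINI-VPR at an adjusted p of 0.223, 0.06 ± 0.11 for dCas12a-VPR at an adjusted p of 0.836). The dCasMINI-VPR effect was 0.17 without sgTet replicate 1 and 0.45 without replicate 2. Zero counts of the other tRNAs cannot be read as absence of the RNA, since a read that also touches a neighbouring gene is counted for neither.

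The strand columns show part of what that rule removes. These columns count a read only against genes of one orientation, so a read across neighbours of opposite orientation, which the main column leaves out, is counted for one of them in each strand column. Over all genes 50.6% of the reads in these columns were in the forward column, with libraries between 50.3% and 50.7%, so the libraries hold no strand information. MT-CO2 was at 52.3%, MT-CO3 at 51.5% and the light-strand MT-ND6 at 48.9%. The farthest from the value of all genes were tRNAs with few reads, MT-TT at 63.2% of 133 reads (95% exact binomial interval 54.4% to 71.4%) and MT-TQ at 45.2% of 485 reads (40.7% to 49.7%). A read assigned to a gene here can therefore come from the RNA of either strand, which cannot be told apart. With the strand columns 9 tRNAs had reads, and 13 had none in any column, namely 11 of the 14 heavy-strand tRNAs and 2 of the 8 light-strand tRNAs.

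Reads at the junctions printed above were many. MT-ND6 had 46912 reads in the main column and 90049 in both strand columns, so 47.9% of its reads were left out of the main column. For MT-ND5, whose end meets that of MT-ND6, 43116 reads or 15.4% were left out, close to the 43137 left out of MT-ND6. MT-CO1 lost 132107 reads or 9.48% in the same way. At its end lies MT-TS1, with 72594 reads in the strand columns and 0 in the main one, and before its start lies the tyrosine tRNA gene MT-TY, with 18837 and 0. MT-TP had 2332 such reads, while MT-TQ, MT-TE, MT-TT, MT-TW and MT-TA had between 89 and 485. Over both strand columns MT-TP was at 57.9 and 47.9 CPM of gene reads in sgTet, against 40.1 and 42.6 in sgNT. It was at 47.3 and 44.0 in crTet, against 38.0 and 41.4 in crNT. The mean of its guide effects was called with forward-strand (0.34, adjusted p = 0.0175) and reverse-strand counts (0.30, adjusted p = 0.0338). Over all genes 2.79% and 3.44% were called, in either direction. With either construct alone MT-TP was not called in these columns.

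Reads assigned to MT-TS1 separated the guides more widely than those of any mRNA with dCasMINI-VPR. Summed over both strand columns, MT-TS1 had 578 and 532 CPM of gene reads in sgTet, against 299 and 309 in sgNT. It had 416 and 412 in crTet, against 308 and 315 in crNT. The sgTet libraries were the highest and lay close together, the crTet libraries came next, and the 4 non-targeting libraries lay within 299 to 315. With forward-strand counts, fitted over 17392 genes, the dCasMINI-VPR effect was 0.89 ± 0.07 on the log2 scale (1.86-fold, adjusted p = 4.25e-10), where 0.443% of genes were called higher. With reverse-strand counts, fitted over 17296 genes, it was 0.93 ± 0.08 (1.91-fold, adjusted p = 1.48e-12), where 0.347% were called higher.

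With dCas12a-VPR the MT-TS1 effect was 0.43 ± 0.07 with forward-strand counts (adjusted p = 4.23e-04) and 0.46 ± 0.08 with reverse-strand counts (adjusted p = 7.25e-05), where 2.41% and 2.71% of genes were called higher. Of these calls the forward one was lost without crNT replicate 1, where the effect was 0.41. The difference between the guide effects was 0.46 ± 0.10 with forward-strand counts (adjusted p = 0.0244) and 0.47 ± 0.11 with reverse-strand counts (adjusted p = 0.0172), where 0.213% and 0.33% of genes were called higher. The call of this difference did not hold without sgNT replicate 1 (adjusted p = 0.149 forward, 0.0943 reverse), sgNT replicate 2 (0.243 and 0.225), crNT replicate 1 (0.142 and 0.106) or crNT replicate 2 (0.184 and 0.127), and with forward-strand counts without crTet replicate 1 (0.0951). Without sgTet replicate 1 the difference was 0.40 forward and 0.39 reverse, and without replicate 2 it was 0.52 and 0.54. The dCasMINI-VPR effect was called in all 13 alternatives of each column. It was between 0.84 and 0.95 forward and 0.86 and 1.004 reverse, lowest without sgTet replicate 1 and highest without sgTet replicate 2. These fits were chosen after the values of MT-TS1 had been seen.

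Set against MT-CO1 in the same columns, MT-TS1 had 58.4 and 73.2 reads per 1000 MT-CO1 reads in sgTet, against 46.5 and 44.6 in sgNT, and 46.4 and 46.5 in crTet, against 48.5 and 48.6 in crNT. The sgTet libraries were above all others, which lay close together. MT-TY, at the other end of MT-CO1, had 15.2 and 14.0 reads per 1000 in sgTet, against 14.2 and 14.0 in sgNT, and 13.1 and 13.9 in crTet, against 11.7 and 11.1 in crNT. Here it was the crNT libraries that stood lowest. No MT-TS1 or MT-TY read is in the main column, so by its rule each touches another gene as well. A read across a junction with MT-CO1 is thus in both parts of these ratios. MT-TY was called with dCas12a-VPR in both columns, at 0.71 ± 0.15 forward (adjusted p = 0.0199) and 0.80 ± 0.14 reverse (adjusted p = 0.00684), and not with dCasMINI-VPR, at 0.46 ± 0.15 (adjusted p = 0.25) and 0.48 ± 0.14 (adjusted p = 0.197). Without sgTet replicate 1 MT-TY had 0.13 forward and 0.18 reverse with dCasMINI-VPR, and without replicate 2 it had 0.73 in both columns. Its dCas12a-VPR call was lost in 4 of 13 alternatives forward, those without either crTet or either crNT library, and in 2 of 13 reverse, without crTet replicate 2 among them (adjusted p up to 0.176 and 0.0719). The difference between its guide effects did not pass the test (-0.25 ± 0.21, adjusted p = 0.647 forward, and -0.32 ± 0.20, adjusted p = 0.524 reverse). Without sgTet replicate 1 this difference was -0.58 forward and -0.62 reverse, and without replicate 2 it was 0.017 and -0.069. It turns on which sgTet library is used.

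**Figure D4:**
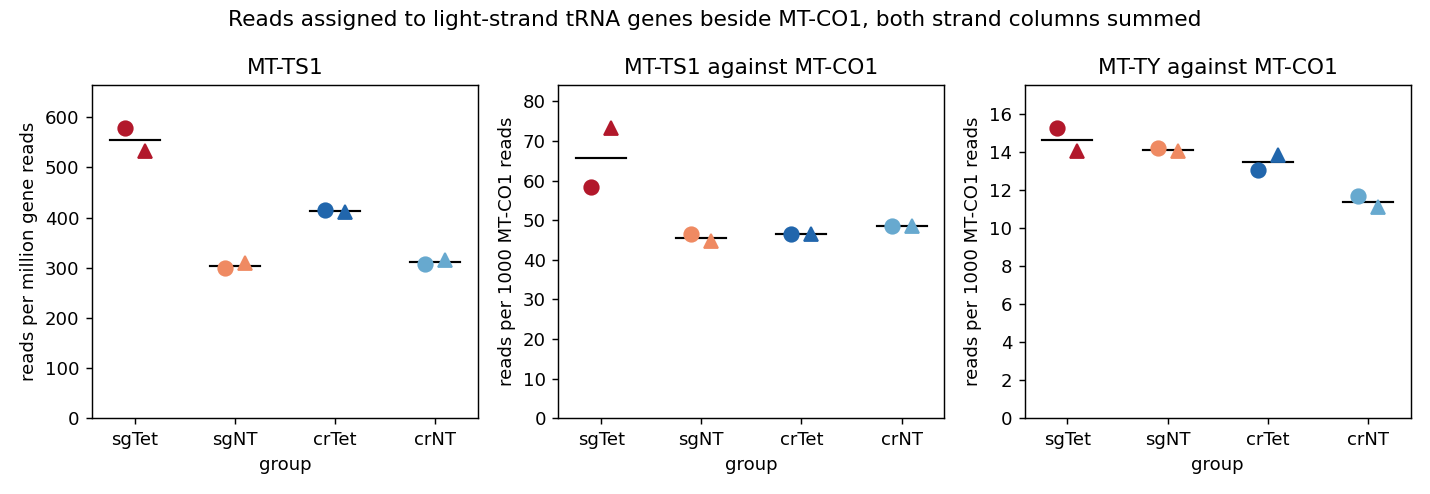
Reads of the opposite-strand tRNA genes beside MT-CO1, summed over both strand columns, in sgTet, sgNT, crTet and crNT (circles replicate 1, triangles replicate 2, lines means), with MT-TS1 in CPM of gene reads on the left and MT-TS1 and MT-TY per 1000 MT-CO1 reads in the middle and on the right. The sgTet libraries are highest in the left panel, at 578 and 532, and in the middle panel, at 58.4 and 73.2. All these tRNA gene reads are left out of the main column because they also touch another gene.

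Levels of different members were compared per length in the main column, as CPM per kilobase of the bases that no other gene shares. Averaged over the 8 libraries, MT-CO2 was highest at 6480.4 CPM per kb, followed by MT-CO3 at 5335 and MT-CO1 at 5178. The ranges over libraries of these 3 overlapped, from 5381 to 9110.4 for MT-CO2, 4548 to 6752 for MT-CO3 and 4233 to 6818 for MT-CO1. MT-ATP6 at 2910.4, MT-RNR2 at 2648, MT-ND4 at 2259, MT-ND3 at 2076, MT-ND2 at 1862, MT-ND1 at 1796, MT-RNR1 at 1752 and MT-CYB at 1615 CPM per kb followed, each overlapping its neighbours in this order. The library range of MT-CO1 began at 4233, and that of MT-ATP6 reached 4433 in sgTet replicate 1, so these overlapped too.

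Below MT-CYB came a step in this column. MT-ND5 averaged 829.7 CPM per kb with a highest library of 1133, under the lowest of MT-CYB at 1239. MT-ND4L at 629.6, MT-ND6 at 567 and MT-TP at 544 CPM per kb overlapped with each other. The main column leaves out 15.4% of the MT-ND5 reads, 47.9% of those of MT-ND6 and 28.5% of those of MT-TP. For MT-CYB it leaves out 0.676%. The step and the places of MT-ND5, MT-ND6 and MT-TP are therefore shown for the main column only. MT-ATP8 was far below the rest, at 37.4 CPM per kb (23.8 to 61.8), though it lies on the same RNA as MT-ATP6, at 2910.4 CPM per kb. MT-ATP8 is 207 bases long with 161 of its own, so few sequenced fragments can lie in it without touching MT-ATP6. MT-ND4L, with 290 bases of its own, stood likewise below MT-ND4. How far this counting rule sets those levels was not tested.

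**Figure D5:**
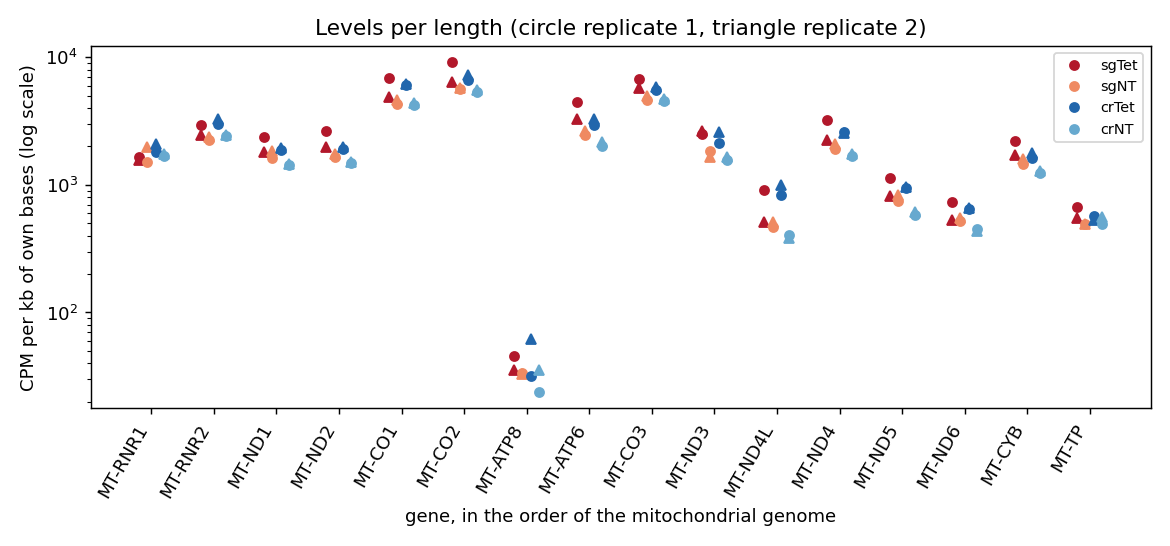
CPM per kilobase of a gene's own bases (vertical axis, log scale) for the 16 mitochondrial genes tested, in genome order, with a colour for each group, circles for replicate 1 and triangles for replicate 2. MT-CO2, MT-CO3 and MT-CO1 lie highest, with means from 5178 to 6480.4, and MT-ATP8 lies lowest, with a mean of 37.4.

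The guide effects of the constructs were compared directly. In the main column 0 of the 16 genes passed the test of the difference, where 1.35% of all genes were called in either direction. None of the 16 reached an unadjusted p under 0.05 either, and a DESeq2 fit also called 0. The fitted differences ran from -0.68 for MT-ND4L to 0.26 for MT-TP, with SEs of 0.42 and 0.16, and the smallest adjusted p was 0.334. These values leave room for sizeable differences between constructs in single genes. Without sgTet replicate 1, 6 genes were called smaller in the dCasMINI-VPR effect, where 1.08% of all genes were called in either direction. Without sgTet replicate 2, 2 were called larger and 1 smaller, where 10.4% of all genes were called. The sign of the difference was negative in 14 of the 16 genes without sgTet replicate 1, and positive in 10 of the 16 without replicate 2, so this comparison turns on which sgTet library is used.

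Averaged over both guides, 2 of the 16 mitochondrial genes were called between the constructs. MT-ATP6 was called higher with dCasMINI-VPR (0.30 ± 0.08, adjusted p = 0.0454) and MT-RNR2 lower (-0.16 ± 0.05, adjusted p = 0.0476), where 4.83% of all genes were called higher and 5.2% lower. At an unadjusted p under 0.05 there were 7 of the 16, and 3928 of the 16606 genes tested. The median log2 fold change of the 16 was 0.11. Without sgTet replicate 2, 10 were called, where 13.6% of all genes were, and without sgTet replicate 1, 5 (11% of all genes). In 0 of the 16 genes did all dCasMINI-VPR libraries lie on one side of all dCas12a-VPR libraries, while 4.09% of all genes did so with dCasMINI-VPR higher and 5.62% with it lower. The MT-ATP6 call was lost in 8 of 16 alternatives (adjusted p up to 0.215) and the MT-RNR2 call in 10 of 16 (up to 0.207), for both without sgNT replicate 2, crTet replicate 2 or crNT replicate 1, for MT-ATP6 also without crTet replicate 1, and for MT-RNR2 also without sgTet replicate 2, sgNT replicate 1 or crNT replicate 2.

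Nuclear DNA holds old copies of mitochondrial genes, and a read that matches both is left out of the counts or may be placed in either. The files hold 394 such copies, of which 46 had a read, with 24915 reads in all, or 0.444% of the reads of the 37 genes. Most came from MTATP6P1, MTCO1P12, MTCO3P12 and MTCO2P12, which lie together on chromosome 1. MTATP6P1 was at 209 and 94.4 CPM in sgTet, against 81.1 and 75.8 CPM in sgNT, and at 119 and 170.2 CPM in crTet, against 58.7 and 60.6 CPM in crNT. It was higher in each Tet library, as MT-ATP6 was, and was not called (0.95 ± 0.43 for dCasMINI-VPR at an adjusted p of 0.481, 1.28 ± 0.44 for dCas12a-VPR at an adjusted p of 0.221).

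MTCO1P12 was at 38.6 and 22.2 CPM in sgTet, against 24.8 and 22.4 CPM in sgNT, and at 36.7 and 44.8 CPM in crTet, against 21.5 and 19.8 CPM in crNT. The crTet libraries were well above the crNT libraries, and the gene was called with dCas12a-VPR (0.98 ± 0.22, adjusted p = 0.0294), a call lost without any 1 of the sgNT, crTet or crNT libraries and with forward-strand counts (adjusted p up to 0.181). Of the 10 copies tested, 1 was called with dCas12a-VPR by edgeR and 2 by DESeq2, and 0 were called with dCasMINI-VPR (2 at an unadjusted p under 0.05, 0 by DESeq2). Of all genes, edgeR called 3.56% higher with dCas12a-VPR and 0.47% with dCasMINI-VPR. The median log2 fold change of the 10 copies was 0.97 with dCasMINI-VPR and 0.73 with dCas12a-VPR, beside 0.00 and 0.01 over all genes tested. In the annotated transcripts, 27.9% of the 100-base windows of MT-CO1 had an exact match in a nuclear copy, as did 26.1% of those of MT-ND2, 11.9% of MT-ATP6, 10.97% of MT-ND1, 4.38% of MT-CO3 and 2.39% of MT-CO2, and 0 of those of the other mRNAs and the rRNAs. Levels of these 6 mRNAs are therefore lower bounds where such reads were left out, and reads of a copy and of its mitochondrial gene cannot be fully told apart.

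Nuclear genes serve mitochondrial DNA and RNA. Of 26 genes for mitochondrial DNA maintenance and transcription, all were tested and 0 were called with dCasMINI-VPR by edgeR or by DESeq2, with 5 at an unadjusted p under 0.05, where 0.47% of all genes were called higher and 0.325% lower. With dCas12a-VPR 2 were called higher and 1 lower, where 3.56% of all genes were called higher and 2.75% lower. SSBP1, which coats single-stranded mitochondrial DNA, was at 301 ± 20.9 CPM in crTet and 244 ± 4.79 CPM in crNT (0.30, adjusted p = 0.00827). PPARGC1B, a coactivator of mitochondrial biogenesis genes, was at 25.1 ± 0.131 CPM in crTet and 18.7 ± 1.96 CPM in crNT (0.42, adjusted p = 0.0445). RNASEH1, which removes RNA from hybrids with DNA, was lower, at 54.2 ± 3.66 CPM in crTet and 69.6 ± 2.38 CPM in crNT (-0.36, adjusted p = 0.0224). RNASEH1 was also the only gene of the list whose guide effects differed by the test (0.56, adjusted p = 0.0324), where 1.35% of all genes were called in either direction. The calls with dCas12a-VPR rested on few libraries. SSBP1 was lost without crTet replicate 2 or either crNT library, and PPARGC1B without any 1 of the sgNT, crTet or crNT libraries. RNASEH1 was lost without crTet replicate 1 or either crNT library. The difference for RNASEH1 was lost without sgNT replicate 2, crTet replicate 1 or either crNT library. For the mean of the guide effects SSBP1 alone was called (0.26, adjusted p = 0.00148), where 2.39% of all genes were called higher. That call held in all 16 alternatives. The median log2 fold change of the list was 0.07 with dCasMINI-VPR and 0.09 with dCas12a-VPR.

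Of 40 genes for processing and stability of mitochondrial RNA, 39 were tested. With each guide 1 was called higher, where 0.47% of all genes were called higher with dCasMINI-VPR and 3.56% with dCas12a-VPR. SLIRP, whose product binds mitochondrial mRNAs together with LRPPRC and keeps them stable, was the only one called with each guide. It was at 103 ± 5.68 CPM in sgTet and 70.8 ± 3.46 CPM in sgNT (0.54, adjusted p = 9.40e-04), and at 77.6 ± 9.20 CPM in crTet and 58.2 ± 0.215 CPM in crNT (0.41, adjusted p = 0.00574; SD, n = 2 each). LRPPRC was at 381 ± 48.8 CPM in sgTet and 325 ± 11.5 CPM in sgNT, and at 317 ± 8.47 CPM in crTet and 359 ± 2.34 CPM in crNT. It passed only the test of the difference between the guide effects (0.41, adjusted p = 0.0461), where 1.35% of all genes were called in either direction. TRMT10C, a subunit of the mitochondrial RNase P that cuts at tRNA starts, was called for the mean of the guide effects (0.21, adjusted p = 0.0456). So was SLIRP, where 2.39% of all genes were called higher. SLIRP was lost with dCasMINI-VPR without sgNT replicate 2 (adjusted p = 0.0785), and with dCas12a-VPR without crTet replicate 2 or either crNT library and with either strand column (up to 0.172), while its call for the mean of the effects held in all 16 alternatives. The calls of LRPPRC and TRMT10C each held in 6 of 16 (up to 0.335 and 0.237). For LRPPRC every library but sgTet replicate 2, and for TRMT10C every library but sgTet replicate 2 and crTet replicate 1, ended the call when left out. The median of the list was 0.08 with dCasMINI-VPR and 0.05 with dCas12a-VPR.

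Averaged over both guides, PPRC1, POLRMT and SSBP1 of the first list were called higher with dCasMINI-VPR (0.31, 0.21 and 0.17, with adjusted p = 0.0015, 0.0135 and 0.0235). In the second list 4 were called higher and 1 lower, by DESeq2 6 in all, where 4.83% of all genes were called higher and 5.2% lower. SLIRP, TRMU and FASTKD3 were higher (0.34, 0.27 and 0.43, with adjusted p = 4.73e-04, 0.00987 and 0.0152), as was GTPBP3, named after its value was seen (0.20, adjusted p = 0.031, a call that held in 6 of 16 alternatives and was lost without any 1 library but sgTet replicate 1), and PNPT1, a mitochondrial RNA-degrading enzyme, lower (-0.37, adjusted p = 1.71e-04). PPRC1 and PNPT1 kept these calls in all 16 alternatives and SLIRP in 15. POLRMT was lost without sgNT replicate 2 or either crNT library, SSBP1 without these or crTet replicate 1, TRMU without crTet replicate 1 or crNT replicate 1, and FASTKD3 without those or sgNT replicate 1 and with either strand column (adjusted p up to 0.12, 0.185, 0.116 and 0.294). Nuclear RNAs that as a rule lack an adenine tail give a measure of carry-over through the selection. Of 26 listed, 13 were tested, and SNORD3A was the only one called with dCas12a-VPR, at 6.30 ± 2.77 CPM in crTet and 0.751 ± 0.121 CPM in crNT (3.05, adjusted p = 3.90e-05), a gene for which DESeq2 gave no adjusted p. It was at 4.92 ± 0.600 CPM in sgTet and 3.10 ± 1.71 CPM in sgNT, and 0 of the 13 were called with dCasMINI-VPR, by edgeR at an adjusted or an unadjusted p under 0.05 or by DESeq2. SNORD3A was also called for the difference of the guide effects (-2.38, adjusted p = 0.0229) and their mean (1.86, adjusted p = 5.71e-05). It was called higher with dCasMINI-VPR between the constructs (0.84, adjusted p = 0.0453). The calls of the difference and the constructs held in 10 of 15 and 8 of 16 alternatives. Over all genes 3.56% were called higher with dCas12a-VPR, 1.35% in either direction for the difference and 2.39% higher for the mean. The median of this list was -0.03 with dCasMINI-VPR and 0.18 with dCas12a-VPR. Its part in the mitochondrial results was not tested.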

How the data were processed

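Poly(A)-selected RNA of 8 libraries was sequenced on an Illumina NovaSeq instrument, per the labels. The authors deposited raw read counts per gene for each library, unnormalized, in 3 columns (strand ignored, forward and reverse), made with STAR on hg38 per the submitters' processing notes; the STAR version, read length and annotation release are not given in the sources used here. The 4 summary rows of each file (reads unmapped, in many places, outside genes or ambiguous), 25.3% to 29.9% of all reads, were left out. Gene symbols were matched for 60482 rows, and all 37 mitochondrial IDs were those of GENCODE release 29. Counts of the strand-ignoring column were fitted with edgeR 4.0.16 (robust quasi-likelihood, TMM, its low-count filter by group) in R 4.3.3, with 1 mean per group over all 8 libraries; 16606 genes were tested, with 4 residual degrees of freedom and a common biological coefficient of variation of 8.04%. Tests were two-sided, with Benjamini-Hochberg adjustment over all genes tested in a contrast and calls under 0.05. CPM take each library size after its TMM factor; SE is the log2 fold change over the square root of F; libraries were compared for overlap on CPM. The script was checked on simulated counts. Alternatives were DESeq2 1.42.0 and its size factors, library size alone, scaling without the mitochondrial genes, no filter, each strand column, a replicate block and leaving out each library. Replicate numbers did not pair the libraries. All 37 genes, the gene lists (mitochondrial DNA and transcription, mitochondrial RNA processing, RNAs without a tail, nuclear copies, cell markers) and the tests were chosen with earlier results of these data known. Members were described whatever their direction, and of each list up to 4 called genes per contrast, by smallest adjusted p, were named. Sequences were reassembled from GENCODE release 29 transcripts.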

Additional observations from a re-analysis of the deposited data

Results flagged for a closer look

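Reads assigned to the serine tRNA gene MT-TS1 in the strand columns changed by different amounts under the guides of the constructs. The guide effect with dCasMINI-VPR exceeded that with dCas12a-VPR by 0.46 on the log2 scale with forward-strand counts (adjusted p = 0.0244) and by 0.47 with reverse-strand counts (adjusted p = 0.0172, edgeR). Both constructs had the same direction, higher with the Tet guide. All these reads are left out of the main column because they also touch another gene. The fits of these columns were chosen after the values had been seen, and the difference did not hold without either sgNT or either crNT library, as given above.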

How the results depend on the processing

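Counts of calls depended on the processing and on single libraries. Of all genes, 0.795% were called in either direction with dCasMINI-VPR in the main fit and with DESeq2 size factors. The share was 0.735% with the DESeq2 test, 0.873% with no filter and 0.572% with reverse-strand counts. For the difference it was 1.35%, 1.42% with no filter, 0.609% with forward-strand and 0.983% with reverse-strand counts. Between the constructs it was 10%, 9.6% with library size alone, 5.27% with no filter and 7.18% with forward-strand counts. With dCasMINI-VPR, 2 genes were called in the main fit, against 4 with DESeq2 size factors, 4 with the DESeq2 test and 10 with no low-count filter. With reverse-strand counts 5 were called, among them MT-TS1, which the main fit did not test. With dCas12a-VPR 9 were called, and 1 to 13 when a library was left out. For the difference of the guide effects the count of 0 became 1 with no filter. It was also 1 with forward-strand and with reverse-strand counts, in each case MT-TS1, which the main fit did not test. For the mean of the effects the count of 10 became 4 to 14 when a library was left out. For the constructs the count of 2 became 1 with library size alone and 6 with no filter. With forward-strand counts it was 1, namely MT-TS1 (0.23, adjusted p = 0.00281, edgeR). MT-TS1 was called with reverse-strand counts too (0.20, adjusted p = 0.0152). Both calls of the main fit were lost with forward-strand counts, MT-ATP6 at an adjusted p of 0.0979 and MT-RNR2 at 0.0711. The share difference of 0.891 points ranged from 0.621 to 1.16 when a library was left out.

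Same-numbered libraries did not deviate together (correlation over genes 0.028 for sgTet and sgNT, 0.049 for crTet and crNT), so the numbers give no pairing. With a replicate block, 4 genes were called with dCasMINI-VPR and 1 between constructs, and 7 with dCas12a-VPR, 0 for the difference and 8 for the mean. Over all genes the block called 1.01%, 11%, 7.23%, 2.09% and 4.5% in the same order, in either direction. It ended the dCas12a-VPR calls of MT-ND1 (adjusted p = 0.117) and MT-CYB (0.0504).

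The sign of the guide difference, uncalled in the 16 genes, turned in at least 1 alternative for 11 of them. Of the other log2 fold changes followed, signs turned for uncalled values. When a library was left out, MT-RNR1 ranged from -0.29 to 0.10 with dCasMINI-VPR and from -0.054 to 0.14 for the mean of the effects, where it was -0.000575 with library size alone. MT-ND6 ranged from -0.028 to 0.45 with dCasMINI-VPR, MT-TP from -0.032 to 0.16 with dCas12a-VPR, and the MT-TY difference (forward-strand counts) from -0.58 to 0.017. With dCasMINI-VPR, MTCO1P12 ranged from -0.086 to 0.71, MTCO3P12 from -0.28 to 1.74 and MTCO2P12 from -0.59 to 1.73, lowest without sgTet replicate 1 and highest without sgTet replicate 2. The cause was not tested. A library alone in its group is assumed to vary like the others. No scaling moved the median of all genes by 0.1 or more. The alternatives for genes outside the 37 and for the signs of the differences were chosen after seeing the data. Few reads limit MT-ATP8 and, through the rule on reads that touch 2 genes, the tRNAs.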
